A study of Mus musculus with 2 samples.

Results

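Tandem introns are introns of which an end lies only a few bases from a splice site of the annotation. They were taken from long-read transcript models of mouse gastrocnemius by a fixed rule: an intron of a multi-exon model in an annotated gene, 5 or more reads over both libraries, at least 1 end outside the annotation, and every such end 1 to 10 bases from an annotated end of the same kind and strand. The members were thus chosen by their reads summed over both libraries and by the distance of their ends. The rule found 809 tandem introns at 458 genes or overlapping gene pairs, among 2703 introns with an unannotated end and 93175 introns with 5 or more reads. The RNA was from gastrocnemius, a muscle of the calf. The mice were B6CASTF1/J females at 25 days of age, and each library was made from 2 µg of total RNA. All samples form 1 group of 2 biological replicates with no treatment in the labels, so the only comparison the design holds is between the libraries. The labels give both animals the same donor record, and B6CASTF1/J is a first-generation hybrid whose parental alleles were not told apart here. Spread between the libraries therefore holds animal, dissection and library differences together.

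Introns are removed at a donor, which usually begins with GT, and an acceptor, which usually ends with AG. Where a second GT or AG stands close by, the spliceosome can use either, and the exon gains or loses the bases between them. Such tandem sites are best known as neighbouring AG acceptors and as overlapping GT donors, and a gain or loss that is not a multiple of 3 shifts the reading frame of a coding exon.

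The acceptors below show the first bases of the annotated exon (mm10, bases from the GENCODE M21 transcripts, read on the gene's strand), with the bases that the tandem acceptor leaves out in capitals. They are shown because downstream acceptors were the most common class, and each capital stretch ends in AG.
Atp2a1 acceptor +3 (chr7:126457176-126457199, minus): GAGagtctgtgtctgtcatcaagc
Dus1l acceptor +3 (chr11:120791920-120791943, minus): GAGgacatgtctaggcagcaagaa
Casq1 acceptor +3 (chr1:172213368-172213391, minus): GAGgatgacctggatggaatccac
Myl1 acceptor +3 (chr1:66926262-66926285, minus): GAGagaagatgaaggaggaagagg
Tmco3 acceptor +3 (chr8:13308346-13308369, plus): CAGgtgacatcgactacagcacag
Tpm1 acceptor +2 (chr9:67033970-67033993, minus): AGgcatgaaagtcattgaaagccg
Myl1 acceptor +2 (chr1:66926684-66926707, minus): AGatgaatgctaagaaaatcgagt
Myh4 acceptor +2 (chr11:67250752-67250775, plus): AGagtccatcttctgcattcagta
Actn3 acceptor +2 (chr19:4864130-4864153, minus): AGcctgctaacagcacacgaacag
Tnnc2 acceptor +2 (chr2:164777310-164777333, minus): AGtttctgaagatgatggagggcg
Atp2a1 acceptor +4 (chr7:126448359-126448382, minus): ACAGgggatggtgtcaatgatgcc
Sdhb acceptor +6 (chr4:140966495-140966518, plus): TTTCAGgcctgtcgaggggcacag

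The donors below end the upstream exon. For donors 4 or 8 bases downstream, the capitals are the bases added to the exon, which start with the GT of the annotated donor, and the closing lower-case gt starts the tandem intron. For upstream donors the capitals are the exon bases left out, and they start with the first bases of the tandem intron. The first 6 are shown because a shift of 4 bases was the most common donor distance. All of them but Tnnc2 span an annotated exon of 27 bases or fewer, as does Babam2/Mrpl33, against 28 of all 351 donors. These introns had high shares of the reads at their acceptor and are not typical of their class, as described below.
Idh3g donor +4 (chrX:73782669-73782690, minus): aaggagcatttcctcaGTAAgt
Pitpna donor +4 (chr11:75603465-75603486, plus): ccttactgcagaaccgGTGAgt
Lmf1 donor +4 (chr17:25585837-25585858, plus): acgtagggcagatctgGTAAgt
Tnnc2 donor +4 (chr2:164777938-164777959, minus): gaggtggacgaggatgGTGAgt
Mxra8 donor +4 (chr4:155839875-155839896, plus): ctgctgcttcttcagaGTGAgt
Ptk2 donor +4 (chr15:73215973-73215994, minus): caatgagggtgtcaagGTGGgt
Babam2/Mrpl33 donor +8 (chr5:31614007-31614032, plus): ctctccgctgtctcttGTAAGTCGgt
Ldha donor -3 (chr7:46851039-46851058, plus): agaacatggcgactccaGTG
Ak1 donor -4 (chr2:32629865-32629884, plus): caagatcatctttgtgGTGG
Atp2a1 donor -2 (chr7:126453362-126453381, minus): tatgctcctgagggagagGT

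Replicate 1 held 1069771 mouse reads and replicate 2 held 1557594, after ERCC spike-in reads of 30993 and 31067 were left out. The 6 skeletal muscle markers checked (Acta1, Ckm, Myh4, Atp2a1, Tnnt3 and Mylpf) summed to 323309 CPM (counts scaled by the total of mouse reads) in replicate 1 and 234426 CPM in replicate 2. Fibroblast, blood, endothelium and adipocyte markers summed to 4019, 964, 40.2 and 56.1 CPM in replicate 1, against 2115, 345, 14.8 and 12.2 CPM in replicate 2. Atp2a1 was the highest of the 6 in replicate 1, at 157924 CPM. In replicate 2 it had 56409 CPM, below Acta1 (75267 CPM) and Ckm (69655 CPM). Acta1, Ckm, Tnnt3 and Mylpf were higher in replicate 2, as was the fibroblast marker Dcn. In bulk RNA, fewer cells of a type and less RNA per cell cannot be told apart, and the part of cell makeup in the values below was not tested.

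Tandem introns were many in number and rare in reads. They were passed 10136 times in replicate 1 and 12673 times in replicate 2, or 0.0914% and 0.123% of all junction passes. The 1894 introns with an unannotated end farther than 10 bases away took 1.80% in replicate 1 and 1.11% in replicate 2. At least 1 tandem intron stood in 9828 spliced reads of replicate 1 (0.991%) and 12413 of replicate 2 (0.932%). The deposited tables label most of these reads NNC, their class for a model with a splice site outside the annotation: 70.2% in replicate 1 and 73.5% in replicate 2. The NIC label, meant for new joins of annotated sites, stood on 22.0% and 20.2% although each model holds an unannotated end, and the ISM label, for partial matches to annotated models, on 7.75% and 6.34%.

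The typical member had few reads: the median was 9 over both libraries, 129 members stood exactly at 5, and 40 had 100 or more. Just outside the read minimum, 286 introns met the distance rule with 4 reads. Just inside the distance limit, 25 introns lay 9 bases away and 15 lay 10, and just outside it 13 lay 11 and 18 lay 12 bases away. For each intron a share was computed, its reads over its local reads, which are its own reads plus those of all introns that use the same annotated end opposite. Intervals for shares are 95% exact Clopper-Pearson intervals and cover counting error only, since the tables give reads, not molecules. The median share was 0.842%, with quartiles at 0.140% and 6.58%. At the upper end 166 members reached a share of 10% and 54 a share of 50%, of which 45 did so in each library. Only 17 of the 54 had 50 or more local reads over both libraries.

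Of the 809 members, 351 moved the donor alone, 415 the acceptor alone and 43 both ends. Acceptors made up 54.2% of the 766 members with 1 moved end, against 76.4% of 399 annotated pairs, that is, pairs of annotated introns with 5 or more reads each that differ by 1 to 10 bases at 1 end. Among unannotated ends farther away the acceptor share was 43.6% at 11 to 40 bases and 39.4% beyond 40 bases. Acceptors lay downstream of the annotated site in 88.9% of cases and donors in 65.5%. Of the 766 members, 742 had an annotated intron joining the nearest annotated ends; that intron had 0 reads for 13 of them and fewer reads than the member for 45.

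**Figure D1:**
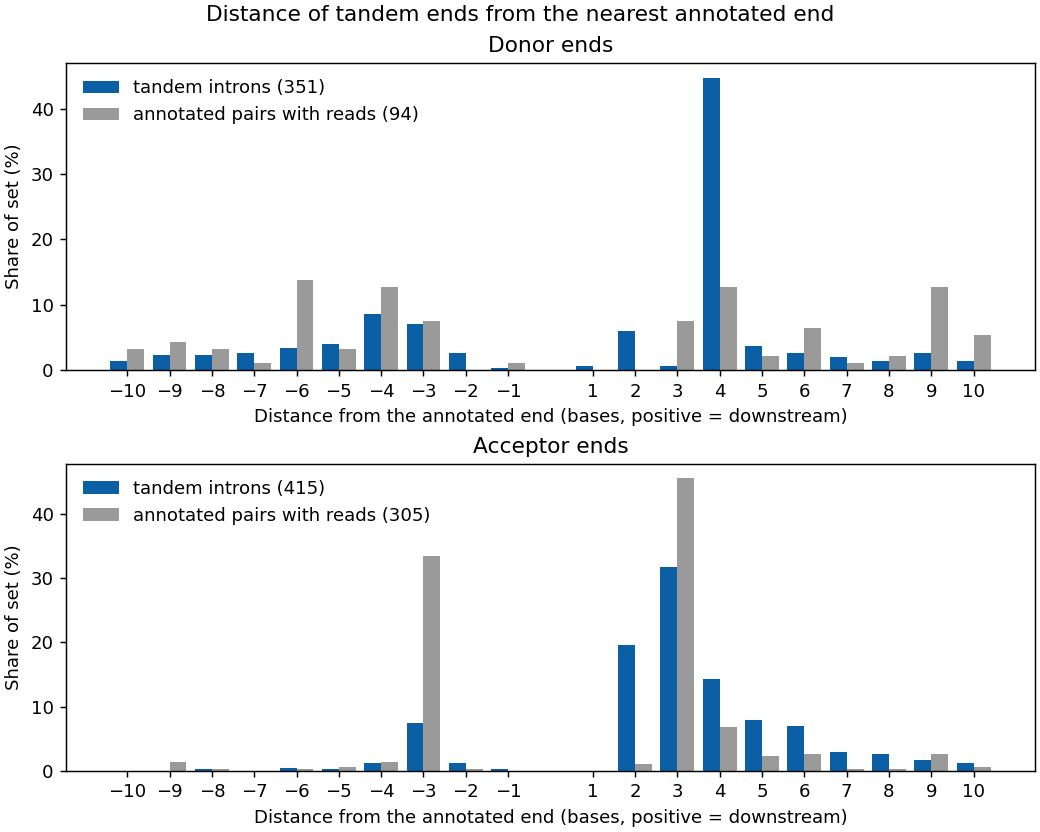
Share of tandem introns (blue, 351 donors and 415 acceptors) and of annotated pairs (grey, 94 donors and 305 acceptors) at each distance in bases from the annotated end, or, for annotated pairs, of the less read end from the more read one. Donors peaked 4 bases downstream (44.7% of tandem donors against 12.8% of annotated pairs), and acceptors 3 bases downstream (31.8% against 45.6%).

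Each kind of end had its own preferred distance. A donor 4 bases downstream, as in the Tnnc2 sequence above, accounted for 157 of 351 donors (44.7%). It was followed by 30 donors 4 bases upstream, 25 at 3 bases upstream and 21 at 2 bases downstream. An acceptor 3 bases downstream, as in Dus1l and Casq1, accounted for 132 of 415 acceptors (31.8%). The next acceptor distances were 2 bases downstream with 81, 4 with 59, 5 with 33, 3 upstream with 31 and 6 downstream with 29. Introns under the read minimum, with 1 to 4 reads, showed much the same donor peak: 46.0% of 4145 lay 4 bases downstream. Acceptors differed more: 31.8% of members lay 3 bases downstream, against 20.9% of 4002 introns with 1 to 4 reads, and 7.47% lay 3 bases upstream, against 2.87%.

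Shares differed between the distances more than counts did. Acceptors 3 bases upstream had a median share of 26.3%, and 25 of the 31 reached 10%. Acceptors 3 bases downstream had a median of 5.55%, and 49 of 132 reached 10%. Acceptors 2 bases downstream had a median of 0.532%, and 0 of 81 reached 10%. Donors 4 bases downstream, the most numerous class of all, had a median of 0.511%, and 26 of 157 reached 10%. These shares are descriptions: the read minimum lets a member with few local reads in only where its share is high.

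Where the bases at the new ends could be read, most donors began with GT and most acceptors ended in AG. Of 369 acceptors inside an annotated exon, 362 ended in AG and 7 in AT. Of 120 donors inside an exon, 101 began with GT and 19 with GC. Of ends inside the annotated intron, 55 of 230 donors could be read, with 53 GT and 2 GC, and 11 of 46 acceptors, with 10 AG and 1 AT. Introns with a single read had these ends too: 2653 AG and 113 AT among 2767 acceptors, and 908 GT and 243 GC among 1152 donors. The sources used here give neither the aligner nor whether splice sites were corrected toward such ends.

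Most nearby AGs held no member, and the share that did was highest at 3 bases and lowest at 9 and 10 bases. Among 16940 annotated acceptors passed by 100 or more reads, 831 (4.91%) had an unannotated AG ending 2 bases into the exon, and 79 of these AGs (9.51%) held a tandem intron. At 3 bases it was 80 of 735 (10.9%), at 4 bases 52 of 932 (5.58%), and at 5 bases 32 of 887 (3.61%). At 10 bases 1401 acceptors (8.27%) had an AG and 5 of them held a tandem intron (0.357%). AG and GT were searched on the gene's strand in the exon bases beside each annotated end. Among donors passed by 100 or more reads, a GT 3 bases into the exon was present at 331 and held a tandem intron at 23 of them (6.95%), against 5 of 728 (0.687%) at 10 bases.

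**Figure D2:**
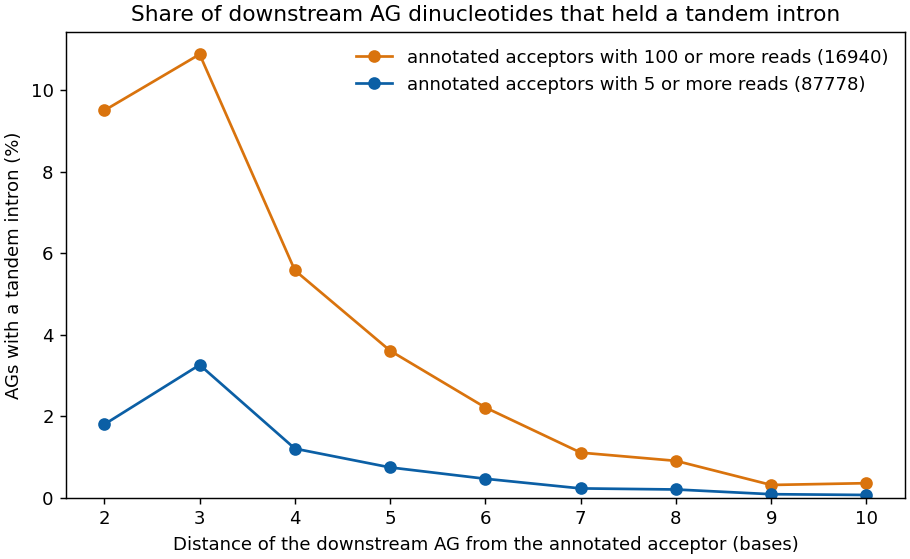
Share of unannotated AG dinucleotides downstream of an annotated acceptor that held a tandem intron (vertical axis, percent), by distance in bases, for acceptors with 100 or more reads (orange, 16940) and with 5 or more reads (blue, 87778). Both lines peak at 3 bases, at 10.9% and 3.26%, and fall to 0.357% and 0.0675% at 10 bases.

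Most members lay in coding sequence: 709 (87.6%), with 76 in 5′ UTRs, 15 in 3′ UTRs and 9 in noncoding transcripts. A shift by a multiple of 3 bases, which keeps a coding frame, was found in 266 of 766 members with 1 moved end (34.7%). Here and below a member with such a shift is said to keep the frame, also where it lies outside coding sequence. For acceptors it was 201 of 415 (48.4%) and for donors 65 of 351 (18.5%). Annotated pairs were higher at 77.9% (85.9% of acceptors and 52.1% of donors), but the sets differ in usage. In 333 of the 399 pairs the less read end had a share of 10% or more, while 166 of all 809 members reached 10%. The 66 pairs with a share under 10% stood at 57.6%, with 33 of 44 acceptors and 5 of 22 donors (22.7%). The part of usage in the difference between the sets was not tested. Unannotated ends 11 to 40 bases away stood at 43.2% of 287, and ends beyond 40 bases at 34.9% of 1245.

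For acceptors, frame-keeping went with the share of local reads, and most frame-keeping acceptors lay 3 bases away. Below a share of 1%, 54 of 192 acceptors kept the frame (28.1%, interval 21.9 to 35.1). From 1% to 10% it was 65 of 128 (50.8%, interval 41.8 to 59.7), from 10% to 50% it was 66 of 77 (85.7%, interval 75.9 to 92.6), and from 50% it was 16 of 18 (88.9%, interval 65.3 to 98.6). Acceptors 3 bases away made up 36, 53, 61 and 13 of the frame-keeping acceptors in these bins. The order is thus in large part that of 1 distance. Donors showed no such order, with 13.3%, 30.3%, 22.6% and 21.2% over the same bins. Binned by the share in replicate 1 alone the acceptors stood at 30.3%, 51.7%, 81.1% and 85.7%, and by replicate 2 alone at 29.9%, 47.7%, 88.0% and 88.9%. With the members limited to 50 or more local reads, the upper bins held 37 of 45 (82.2%) and 3 of 4. With 500 or more local reads, where the read minimum admits shares down to 1%, 54 of 192 acceptors under 1% kept the frame and 18 of 34 from 1% to 10% (52.9%). This is a description with no test, since reads chose the members and also enter the share.

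**Figure D3:**
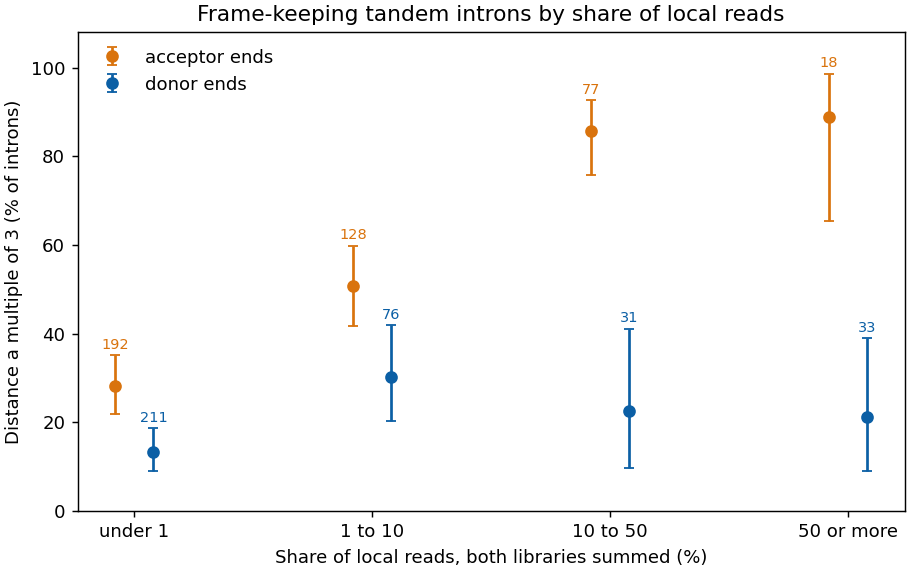
Percent of tandem introns whose moved end lies a multiple of 3 bases from the annotated end (vertical axis), by share of local reads over both libraries, for acceptors (orange) and donors (blue). Bars are 95% exact binomial intervals and the number of introns stands above each. Acceptors run from 28.1% in the lowest bin to 88.9% in the highest, and donors stay between 13.3% and 30.3%. Of the 201 frame-keeping acceptors, 163 lie 3 bases away.

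Acceptors 3 bases away with sizeable shares were found in muscle and general genes. Dus1l, a tRNA dihydrouridine synthase, used the acceptor 3 bases downstream (chr11:120791941-120792026) in 91 reads of replicate 1 and 73 of replicate 2, or 98.9% and 98.6% of local reads (98.8% ± 0.187, SD, n = 2). No annotated intron joined its nearest annotated ends: the closest one (chr11:120791944-120792030) also differs by 4 bases at the donor, which makes the net change against it 1 base. Trdn encodes triadin, a protein of the calcium release complex. It had 11 tandem introns, 5 of them acceptors 3 bases downstream, and the most read of these (chr10:33464597-33466425) took 29 and 36 reads, 15.9% and 18.2% (17.1% ± 1.59). Nrap, a protein of myofibril assembly, used an acceptor 3 bases upstream (chr19:56382368-56384058) in 124 and 49 reads, 38.5% and 40.8% (39.7% ± 1.64). The libraries lay within 3 percentage points of each other in each case.

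Other acceptors 3 bases away stood at intermediate shares. Myot, which encodes the Z-disc protein myotilin, had an acceptor 3 bases upstream in 165 and 146 reads, 9.79% and 8.52% (9.16% ± 0.901). Nudt4, a phosphohydrolase of inositol pyrophosphates, had one (chr10:95549864-95551448) in 85 and 57 reads, 32.4% and 31.1% (31.8% ± 0.916). In the 5′ UTR of Cdkn1c, a cyclin-dependent kinase inhibitor, an acceptor 3 bases downstream (chr7:143460676-143460852) took 71 and 74 reads, 24.0% and 23.9%. Replicates of each of these introns lay within 2 percentage points of each other. Others, named here after their values were seen, lay farther apart. Mybph had an acceptor 3 bases upstream at 25.4% in replicate 1 and 36.5% in replicate 2 (35 and 57 reads). Golga4 had one 3 bases downstream at 41.2% and 26.9% (40 and 7 reads). Neither was called in the library comparison below.

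Acceptors 2 bases downstream, which shift a coding frame, were led by contractile genes and had low shares. Tpm1, which encodes a tropomyosin of the thin filament, had the most read of them (chr9:67033992-67035994), with 121 reads in replicate 1 and 265 in replicate 2, or 0.693% and 0.741% of local reads. Myl1, a fast myosin light chain, had 59 and 174 reads at 2 bases downstream (chr1:66926706-66930185), 0.527% and 0.612%. Smdt1, a subunit of the mitochondrial calcium uniporter, stood far higher: an acceptor 7 bases downstream in its 3′ UTR, where no frame applies (chr15:82348041-82348849), took 73 and 182 reads, 56.6% and 54.3%.

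Donors included the most read member and 33 of the 54 members with a share of 50% or more. Of these 33 donors, 12 had 50 or more local reads over both libraries. Vdac3, a channel of the outer mitochondrial membrane, had a donor 1 base downstream of the annotated one (chr8:22583737-22587548) in 569 reads of replicate 1 and 926 of replicate 2, 91.5% and 92.8% (92.1% ± 0.924, SD, n = 2), and the annotated intron beside it had 0 reads. The bases at that donor could not be read from the transcripts. At a locus shared by Babam2 and Mrpl33, a mitochondrial ribosomal protein gene, a donor 8 bases downstream (chr5:31614031-31616380) took 182 and 567 reads, 97.3% and 98.3%. Reads of such overlapping genes cannot be assigned to 1 of them from the intron alone.

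Other donors took most or all of their local reads. Idh3g, a regulatory subunit of mitochondrial isocitrate dehydrogenase, used the donor 4 bases downstream (chrX:73782104-73782670) in 205 and 353 reads, 98.1% and 98.3%. Pitpna, a phosphatidylinositol transfer protein, used one (chr11:75603485-75609104) in 129 and 178 reads, every local read of both libraries. Ampd1, the muscle AMP deaminase, had a frame-keeping donor 6 bases downstream (chr3:103074124-103079028) in 224 and 235 reads, 81.5% and 76.8% (79.1% ± 3.29). In the deposited models the tandem intron thus took most of the reads that share its acceptor in these genes. Each of these introns spans a very short annotated exon, and how reads over such exons were aligned was not tested.

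**Figure D4:**
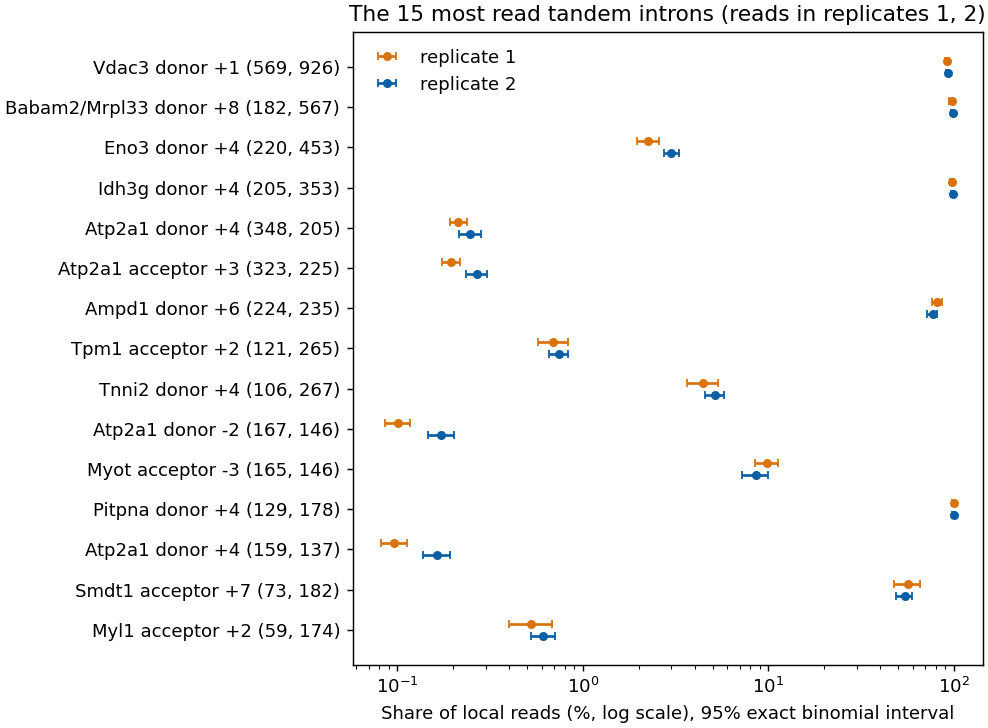
Share of local reads (log axis, percent) of the 15 most read tandem introns in replicate 1 (orange) and replicate 2 (blue), with 95% exact binomial intervals and the reads of replicates 1 and 2 in brackets. Vdac3, Babam2/Mrpl33, Idh3g, Ampd1 and Pitpna lie above 75%, while the introns of Atp2a1, Tpm1 and Myl1 lie below 1%.

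Many donors of high share spanned a very short annotated exon. An annotated internal exon of 27 bases or fewer lay inside 34 members (4.20%), against 311 of 90025 annotated introns with 5 or more reads (0.345%). The limit of 27 bases was chosen after values were seen. Among donors with a share of 50% or more, 16 of 33 spanned such an exon. In Pitpna the shortest of 2 had 8 bases (chr11:75608107-75608114) and their junctions had 0 reads. In Idh3g the exon had 12 bases (chrX:73782298-73782309) with 2 junction reads over both libraries, and in Col6a1, a collagen VI chain, 9 bases (chr10:76712865-76712873) with 0. In Ampd1 it had 12 bases (chr3:103075407-103075418) with 2 junction reads, and in Babam2/Mrpl33 19 bases (chr5:31614603-31614621) with 13. In Tnnt3, which encodes fast troponin T, a donor 9 bases downstream spanned 8 such exons, whose junctions had 88 reads in all. How reads over such exons were aligned was not tested, and the shares of these donors are printed with that limit.

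Both ends moved together in 43 members, in the same direction in 40 of them and by the same distance in 4. Got2, the mitochondrial aspartate aminotransferase, led with both ends 4 bases downstream (chr8:95865248-95866816) in 83 reads of replicate 1 and 68 of replicate 2. Its share against the nearest annotated intron was 42.3% and 35.1% (38.7% ± 5.16, SD, n = 2). Ptcd3, which encodes a protein of the mitochondrial ribosome, had the same double shift (chr6:71889366-71889589) in 50 and 49 reads, all of its local reads. The net length of the exons was unchanged in these genes, and 11 of the 43 kept the frame.

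Muscle genes carried the most members, most of them at very low shares. The 10 genes with most members were Atp2a1 with 39, Myh4 with 24, Actn3 with 23, Ckm and Mybpc2 with 18 each, Acta1 and Tpm1 with 15 each, Myh1 with 14, Eno3 with 13 and Trdn with 11. Together they held 190 members (23.5%) and 34.6% of member reads. Their median share was 0.0435%, against 1.72% for the other 619 members, and 23.7% of their members kept the frame, against 37.5%. Trdn differed from the others, with a median of 1.82% and shares up to 17.1%, and the highest share in Atp2a1 was 6.45%. A share near the median of the 10 genes can pass the read minimum only where local reads are many. The remaining genes were spread thinly, since 364 of 458 had a single member. Myh4 and Myh1, and Acta1 and the other actin genes, are close paralogs, so reads assigned to them are uncertain.

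Most of the listed sarcomere and energy genes held a member. Of 20 sarcomere genes 17 had a member, 158 members in all with a median share of 0.0776%. Of 10 calcium handling genes 5 had one, 59 members at 0.0282%, and all 14 energy metabolism genes had one, 68 members at 0.0698%. The splicing factor list (Rbfox1, Mbnl1, Mbnl2, Celf1, Celf2, Ptbp1, Srsf1, Srsf2, Srsf3, Srsf5, Srsf6, Srsf7, Srsf11, Hnrnpa1, Hnrnpa2b1, U2af1, U2af2 and Rbm24) had 0 members in its 18 genes, all of which had reads. Outside that list Hnrnpm, a splicing regulator named here after its values were seen, had a member (8 and 10 reads). Of all 9315 genes with an intron of 5 or more reads, 460 (4.94%) had a member, a share at which a list of 18 genes can hold none. The median share over all members was 0.842%. The part of depth in these counts was not tested.

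Nearly all members were seen in both libraries, a split the rule did not use. Of 809 members 763 (94.3%) had reads in each, 12 had reads in replicate 1 alone and 34 in replicate 2 alone. The figure was 94.4% for introns with an unannotated end farther away and 98.3% for annotated introns. By depth it was 90.0% of 409 members with 5 to 9 reads, 97.9% of 194 with 10 to 19 and 99.5% of 206 with 20 or more. Annotated introns stood at 92.1%, 99.3% and 99.97% in these classes, and most of them (52703 of 90025) had 20 or more reads. The only member with 20 or more reads in a single library, named here after its values were seen, was a Tnnc2 donor 4 bases downstream (chr2:164777609-164777726), with 0 of 19783 local reads in replicate 1, which allows a share of up to 0.0152%, and 22 reads in replicate 2, a share of 0.0404%. Tnnc2 encodes fast troponin C, and this donor was not among the members called in the library comparison below.

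Shares ranked much alike in the libraries. Over the 721 members with 20 or more local reads in each, the shares of the libraries had a Pearson correlation of 0.982 and a Spearman correlation of 0.898, given as a description across introns that share libraries and genes. The median absolute difference was 0.205 percentage points, which is not small beside the median share of 0.842% over all members. Fisher's exact test, two-sided, with Benjamini-Hochberg adjustment over all 1961 testable introns with an unannotated end, called 11 of the 721 members (1.53%), against 1.07% of all introns tested (21 of 1961). All 11 had the lower share in replicate 1, a direction called for 0.714% of all introns tested. Over all tested members 302 shares were higher and 417 lower in replicate 1. The test compares these libraries, not conditions, and its p-values cover counting error alone.

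Called introns came from 4 genes, and 8 of the 11 from Atp2a1, the calcium pump of fast sarcoplasmic reticulum. Its donor 4 bases downstream at chr7:126460802-126462100 had 111 of 164380 local reads in replicate 1 and 122 of 83771 in replicate 2. The shares were 0.0675% and 0.146% (adjusted p = 1.9e-06, Fisher's exact test). Its donor 2 bases upstream, printed above, had 167 and 146 reads, 0.100% and 0.172% (adjusted p = 0.00059, Fisher's exact test). Over the 39 Atp2a1 members, 24 donors, 11 acceptors and 4 with both ends moved, 30 had the lower share in replicate 1. The gene itself had 168943 reads in replicate 1 and 87863 in replicate 2, so replicate 1 had more local reads and lower shares, and the part of this depth was not tested. Its 39 introns share those reads and are not independent.

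The other called introns were donors 4 bases downstream. Tnnc2 (chr2:164777846-164777939) had 6 reads in replicate 1 and 80 in replicate 2, 0.0304% and 0.149% (adjusted p = 0.00086, Fisher's exact test). Tpm1 (chr9:67036129-67047781) had 2 and 36 reads, 0.0115% and 0.101% (adjusted p = 0.010, Fisher's exact test). Eno3, the muscle enolase (chr11:70658452-70658594), had 220 and 453 reads, 2.25% and 3.00% (adjusted p = 0.036, Fisher's exact test). Each differed by under 1 percentage point. Without the 10 genes with most members, an alternative chosen after seeing the data, 1 member was called.

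**Figure D5:**
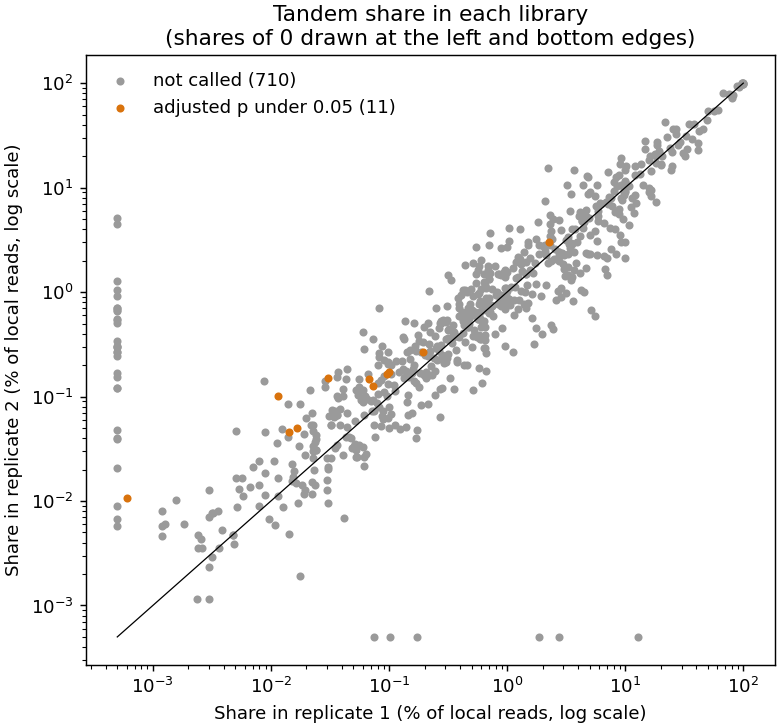
Share of local reads of 721 tandem introns in replicate 1 (horizontal, percent, log axis) and replicate 2 (vertical, percent, log axis), with the 11 introns that differed at an adjusted p under 0.05 in orange and the line of equal shares. Introns with reads in a single library stand at the left or bottom edge, and the other points follow the line. All 11 lie on the side of a lower share in replicate 1.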

How the data were processed

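Long-read RNA sequencing of the gastrocnemius gave 1 library for each of 2 mice. The deposited tables hold read counts per transcript model, not normalized by the authors, as the whole numbers show. The notes deposited with the files name the mm10 assembly and GENCODE M21, and the deposited gene models name TALON; no aligner, version or read filter was given in the sources used. Reads were summed per intron over all multi-exon models of annotated genes that hold it, without spike-ins. Distances were taken to the nearest annotated donor or acceptor of the same strand. Bases came from 141767 GENCODE M21 transcripts and RefSeq promoters placed on mm10, with 0 conflicts; no genome was used, so many intron bases could not be read. Shares with 20 or more local reads in each library were compared by Fisher's exact test, checked on simulated data. For members with both ends moved, local reads were those of the intron and its nearest annotated intron. Named introns were the most read over both libraries, in the lower library and at each distance, those with the largest shares, the called ones and members of the lists. Some further introns were named after their values were seen. Members, lists and tests were chosen with earlier results of these data known. Alternatives changed the read minimum, distance limit, model classes, local reads and libraries. Tests used scipy 1.17.1 and statsmodels 0.14.6, tables pandas 2.3.3 and numpy 2.4.6, and figures matplotlib 3.10.9, in Python 3.11.15.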

Additional observations from a re-analysis of the deposited data

How the results depend on the processing

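The main values are 809 members, an acceptor share of 54.2%, a frame-keeping share of 34.7%, 763 members in both libraries and 11 called members. A minimum of 10 reads left 400 members, 395 of them in both libraries. Without 1 replicate, 397 to 475 members remained with 5 or more reads in the other library, with acceptor shares of 53.2% to 57.3% and frame-keeping shares of 32.0% to 38.1%. A limit of 5 bases lowered the frame-keeping share to 30.5%. Restricting models to Known, NIC and NNC classes raised the called members to 18. Of alternatives chosen after seeing the data, ends readable as GT or GC and AG gave an acceptor share of 68.0%, a frame-keeping share of 41.0% and 5 called members, and it drops intron-side ends, which are mostly donors. Leaving out the 10 genes with most members gave 1 called member. The cause of the other changes was not tested. The share differences of the 11 called introns were recomputed in 102 cases, counting only introns that an alternative kept, and all 102 kept direction and call. Most alternatives leave the reads and local reads of an intron as they are, so its share difference could not change there. Only the model classes and the choice of local reads changed the values. The set without the 10 genes, which holds few of these introns, was left out. The planned check of canonical ends on a genome was not run. No paired analysis was possible because the design has 1 group of 2 libraries. Members with 5 reads and few local reads have wide intervals, and depth limits what is seen below 5 reads.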

Other observations

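Textbook genes with tandem sites gave little outside the annotation. Of 6 such genes (Wt1, Fgfr1, Pax3, Pax7, Stat3 and Gnas), 4 had reads and only Gnas, which encodes a stimulatory G protein subunit, had a member, an acceptor 2 bases downstream (chr2:174346058-174346243) at 0.187% of local reads in replicate 1 (2 reads) and 0.265% in replicate 2 (4 reads).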
